A study of Mus musculus with 2 samples.

Results

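TEAD, VGLL and YAP/TAZ genes were examined as loci of open chromatin in young mouse muscle. The 9 genes were taken by symbol from a gene family, with earlier results of these data known, and are the transcription factor genes Tead1, Tead2, Tead3 and Tead4, the cofactor genes Vgll2, Vgll3 and Vgll4, and the coactivator genes Yap1 and Wwtr1 (the gene for TAZ). They are 9 of 21911 protein-coding genes in the annotation used. DNase-seq, which sequences the ends left where DNase I cuts accessible DNA, was carried out on gastrocnemius, a calf muscle, of male B6CASTF1/J mice aged 14 days, with no treatment named in the labels. These mice are F1 hybrids of C57BL/6 and the wild-derived CAST strain. There was 1 group with 2 libraries labelled as biological replicates, both tied to the same donor entry, and the labels carry the words "3x Males" without explanation, so how many animals gave each library is not known. With no second condition, no contrast was possible, values are given in the order replicate 1 and replicate 2, and ± is the SD over these libraries (n = 2).

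In the Hippo pathway, kinases restrain YAP and TAZ by keeping them out of the nucleus. Neither coactivator binds DNA by itself, and TEAD proteins carry them to DNA through a short sequence whose core is GGAATG, known in muscle as the MCAT element. VGLL proteins bind the same face of TEAD and so can compete with YAP and TAZ. In skeletal muscle, TEAD factors are known from promoters of contractile genes, VGLL2 from fibre type, VGLL3 from myogenic cells, and YAP and TAZ from satellite cells and from muscle growth.

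The libraries held 82498 and 88198 peaks in the stricter of the 2 deposited lists, with median signals of 1.27 and 0.835, and 320456 and 384435 footprints, which are short stretches protected from cutting within open DNA. Read totals are not in the files used here, so the depth is unknown. Signal ran higher in replicate 1, with a median ratio of replicate 1 to replicate 2 of 1.55 over 63851 regions open in both libraries. Acta1, Ckm, Des and 6 more of 10 fibre markers had a promoter peak in both libraries, where 62.1% of all genes did, and the marker not open in replicate 2 was Mb. Among markers of other cell types, all 3 fibroblast and all 3 mural markers had a peak in both. So did 2 of 3 endothelial and 2 of 3 Schwann markers (66.7% each, near the share of all genes). Of 4 satellite cell markers 1 did, and of 3 leukocyte markers 1, Cd68. Sox10 of the Schwann and Calcr of the satellite cell markers had none in either library. Lists this short do not show which cell types were present. Ptprc and Csf1r of the 3 leukocyte markers and all 3 adipocyte markers (Adipoq, Plin1 and Fabp4) had no promoter peak in either. Whole tissue was used, so a weak peak in every nucleus and a strong peak in few nuclei cannot be told apart.

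All 9 genes had a promoter peak in both libraries, where a promoter is the DNA within 1 kb of any start of a protein-coding transcript. Over all genes 62.1% met this rule, and with the permissive list, where again all 9 did, 66.2%. Promoters were then ranked within each library by their strongest peak, as the percentile of that signal among all genes, with genes lacking a peak tied at the bottom. The median percentile of the 9 was 60.4, beside 50.2 for all genes, and in the libraries taken alone it was 64.7 and 56.5. Of all genes, 63.8% and 63.9% had a promoter peak in the single libraries, and the rest held the lowest ranks. The gap to 50.2 thus in part restates that all 9 were open. Ranks among open promoters alone were not computed, so a percentile above 50.2 does not mean a stronger peak than at most open promoters. Tead1 stood highest at 83.2 ± 5.31, followed by Yap1 at 75.3 ± 0.552 and Wwtr1 at 69.8 ± 10.2. Vgll4 (62.3 ± 3.44), Tead4 (60.4 ± 6.10) and Tead3 (59.2 ± 3.87) formed a middle trio, and Vgll3 (52.5 ± 5.21), Tead2 (48.7 ± 2.82) and Vgll2 (47.5 ± 4.14) lay near the median of all genes. Of the 8 pairs of neighbours in this order, only Tead1 and Yap1, and Tead3 and Vgll3, had ranges over the 2 libraries that did not overlap. The other neighbours did not differ beyond the spread between libraries, and 4 of these pairs changed order from one library to the other. The CpG ratio (observed over expected CpG around the start) had a median of 0.642 over the 9 genes and 0.496 over all genes.

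**Figure D1:**
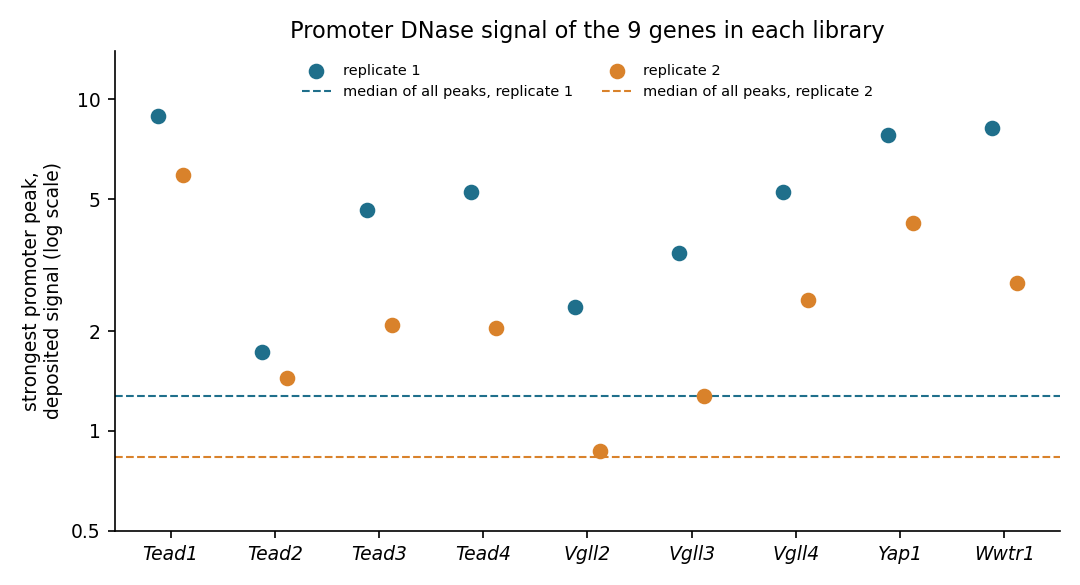
Signal of the strongest promoter peak (y axis, deposited units, log scale) for the 9 genes in replicate 1 and replicate 2, 1 point per library, with the median signal of all peaks of each library as a dashed line. Tead1, Yap1 and Wwtr1 are the 3 highest in both libraries, and Vgll2 in replicate 2 (0.867) sits just above that library's median of 0.835. The dashed lines include distal peaks. The median over all promoter peaks, not drawn, was higher, at 2.66 and 1.53. Tead2 and Vgll2 lay below it in both libraries, and Vgll3 in replicate 2.

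Tead1, the TEAD gene best known from muscle, had the strongest promoter peak of the 9 genes in both libraries, at signals of 8.90 and 5.91. The lowest false discovery rate (FDR) of the cut rate per base there was 1.16e-64 and 4.18e-67, and the strongest peak overlapped 6 and 7 footprints. By FDR Tead1 was not first in either library. Yap1 had lower values in both (1.26e-76 and 1.38e-80), and Tead3 (1.33e-122) and Wwtr1 (1.52e-116) in replicate 1.

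Tead1 has 8 annotated coding starts in 4 places. The inner start at 62.7 kb from the outermost had a peak of 2.89 and 0.707, and the starts at 12.4 kb and 80.1 kb had none within 1 kb in either library. The promoter peak at the outermost start was thus 3.08 and 8.36 times the inner one. The strongest distal region of the gene lay in an intron 4.28 kb past the innermost starts, at chr7:112763601-112763920, with signals of 5.30 and 2.85. Its central 300 bases (chr7:112763611-112763910, plus strand, reference sequence from RefSeq, mm10) show 2 stretches that were inside footprints of both libraries, in capitals.
Tead1 intron: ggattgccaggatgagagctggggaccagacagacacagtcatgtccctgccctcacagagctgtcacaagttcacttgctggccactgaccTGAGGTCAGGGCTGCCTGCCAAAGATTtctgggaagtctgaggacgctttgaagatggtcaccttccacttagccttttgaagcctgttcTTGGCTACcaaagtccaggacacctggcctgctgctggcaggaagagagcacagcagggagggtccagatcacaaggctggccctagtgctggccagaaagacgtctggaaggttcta

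Tead4, a TEAD gene expressed in myogenic cells, was most open not at its outermost starts but at an inner one. The inner start lies 25.2 kb into the gene, at 128275577 on the minus strand, and its peak had signals of 5.23 and 2.04. The outermost starts had 3.25 and 1.65. The inner peak was the stronger in both libraries, by 1.61 and 1.24 times. The sequence upstream of the inner start (chr6:128275578-128275840, minus strand) is shown, with capitals for bases inside footprints of both libraries.
Tead4 inner promoter: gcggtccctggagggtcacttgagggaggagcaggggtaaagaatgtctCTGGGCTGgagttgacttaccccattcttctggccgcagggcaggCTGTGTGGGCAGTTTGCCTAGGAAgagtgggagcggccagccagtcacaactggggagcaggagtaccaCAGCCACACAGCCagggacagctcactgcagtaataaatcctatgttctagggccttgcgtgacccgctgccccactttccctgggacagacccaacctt

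Tead3 and Tead2 had weaker promoters than Tead1, while Tead3 and Tead4 changed order from one library to the other. Tead3 reached 4.63 and 2.08, in overlapping but not identical peaks that together spanned chr17:28350761-28351100. Tead2, better known from embryonic and progenitor cells, had the lowest signal of the 9 in replicate 1, at 1.73, and 1.45 in replicate 2. Its ratio of replicate 1 to replicate 2 was the lowest of the 9, at 1.20, below the median of 1.83 over all promoters open in both libraries. Its strongest peak lay at an inner start (45216673) rather than at the outer ones, where signals were 1.54 and 1.02.

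Among the VGLL genes, Vgll4, the member with paired TEAD-binding motifs and a known repressor of YAP, was the most open. Its inner coding start, 48.2 kb into the gene at 114921821 on the minus strand, had signals of 5.24 and 2.48. Its outer starts had 2.13 and 1.13, so the inner start was again the stronger in both libraries, by 2.45 and 2.19 times. A further site inside Vgll4 was stronger than either. The region chr6:114875061-114875240 had signals of 8.49 and 3.73, the highest mean percentile (92.5) of the 51 distal regions of the 9 genes. It covers the start of an annotated transcript that is not among the coding ones used for promoters, and when the starts of all GENCODE transcripts were used, the promoter percentile of Vgll4 rose from 62.3 to 74.0. The part upstream of that start (chr6:114875146-114875240, minus strand) held 12 bases inside footprints of both libraries, in capitals.
Vgll4 inner transcript start: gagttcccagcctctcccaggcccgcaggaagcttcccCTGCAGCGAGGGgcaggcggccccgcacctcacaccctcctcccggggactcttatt

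Vgll3 had promoter signals of 3.43 and 1.28, and Vgll2, the member most restricted to skeletal muscle, 2.37 and 0.867. Both ranked lower in replicate 2 than in replicate 1, as did all other members but Tead1 and Tead2. Vgll2 in replicate 2 was the weakest strongest-promoter peak of the set, with a lowest FDR per base of 9.31e-07 and 94.8% of its bases at an FDR of 0.001 or less, where each of the other strongest promoter peaks had 100%. Vgll1, which is no member and was looked up after the values of the others had been seen, had no promoter peak in the strict or the permissive list of either library and no shared distal region within 50 kb.

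Yap1 and Wwtr1 had promoter signals of 7.81 and 4.22, and of 8.20 and 2.79. In replicate 1 Wwtr1 was the higher, and in replicate 2 Yap1. Yap1 was the steadiest of the 9 genes in rank, at percentiles of 75.7 and 75.0, and Wwtr1 the least steady, at 77.1 and 62.6. The Yap1 peak had the same borders in both libraries (chr9:8004561-8004800). The Wwtr1 promoter was broader, with 5 and 3 peaks within 1 kb of its starts.

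The TEAD core itself lay shortly upstream of 5 of the 9 genes. GGAATG on either strand was found within 250 bases upstream of the outermost start of Tead1, Tead3, Vgll3, Yap1 and Wwtr1, against 11.4% of all genes. The distances, from start to the middle of the core, were 193, 168, 128, 139 and 134 bases. The core read in the direction of the gene in Tead3, Yap1 and Wwtr1 and against it in Tead1 and Vgll3. The count depends on the window, which was chosen with the sequences in view. Within 100 bases it was 0 of 9 genes against 4.10% of all, and within 500 and 1000 bases it stayed at 5 of 9 while the share of all genes rose to 23.2% and 42.1%. This upstream core of Tead1 lay outside the promoter peaks of both libraries. Other cores, downstream of the outermost Tead1 start, lay inside its strongest promoter peak in both libraries (chr7:112679343-112679348 and chr7:112679355-112679360). The upstream cores of Vgll3 and Yap1 lay inside a peak of each library, and those of Tead3 and Wwtr1 inside a peak of replicate 2 only. These 4 are shown within the merged peaks of the libraries, on the strand of the gene. Each sequence is that upstream of the outermost start of any GENCODE or RefSeq transcript. In Vgll3 and Yap1 that start lies farther out than the coding start from which the distances above were measured (65815257 and 8004596). The core is in capitals and reads CATTCC where it lies on the other strand. They span chr17:28350818-28351100 (minus), chr16:65814889-65815188 (plus), chr9:8004639-8004800 (minus) and chr3:57575911-57576080 (minus).
Tead3 promoter: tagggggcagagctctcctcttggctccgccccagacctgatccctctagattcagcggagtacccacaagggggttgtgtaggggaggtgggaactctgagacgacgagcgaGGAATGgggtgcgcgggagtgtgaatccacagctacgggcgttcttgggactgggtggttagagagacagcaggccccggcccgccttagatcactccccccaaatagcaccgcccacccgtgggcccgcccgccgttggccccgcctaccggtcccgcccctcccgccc
Vgll3 promoter: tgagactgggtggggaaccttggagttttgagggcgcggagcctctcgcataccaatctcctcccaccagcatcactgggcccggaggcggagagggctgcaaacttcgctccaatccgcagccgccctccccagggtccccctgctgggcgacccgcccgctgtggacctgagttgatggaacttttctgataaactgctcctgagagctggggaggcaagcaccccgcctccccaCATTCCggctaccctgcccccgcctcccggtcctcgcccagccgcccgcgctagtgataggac
Yap1 promoter: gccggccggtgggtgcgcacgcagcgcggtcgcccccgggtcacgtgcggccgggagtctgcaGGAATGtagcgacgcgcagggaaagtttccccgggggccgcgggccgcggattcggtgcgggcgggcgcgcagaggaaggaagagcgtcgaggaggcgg
Wwtr1 promoter: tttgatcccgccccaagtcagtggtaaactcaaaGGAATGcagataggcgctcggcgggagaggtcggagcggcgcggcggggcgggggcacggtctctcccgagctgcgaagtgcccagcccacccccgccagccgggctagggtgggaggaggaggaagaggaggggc
None of these cores lay wholly inside a footprint of either library. The core also lay in promoter regions of Tead4 and Vgll4, downstream of their outermost starts. Of the 23 promoter regions of the 9 genes open in both libraries, 10 held the core, beside 9.93% of all 20004. In windows of 300 bases around the region centre, which removes differences in width, these were 9 of 23 and 10.8%. A match is a run of letters, not a site, and the sequence is the C57BL/6 reference, so the CAST allele of these hybrids may differ.

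Within 50 kb of their starts, Tead1, Tead4 and Vgll4 had more distal regions than the other 6 genes. A distal region is here an interval merged from overlapping peaks of both libraries, away from every promoter window, no farther than 50 kb from a start. The 9 genes had 51 such regions, a mean of 5.67 and a median of 4, beside a mean of 2.76 and a median of 2 for all genes. Tead1 had 14, Tead4 12 and Vgll4 10. Of all genes, 3.38% had 10 or more and 0.68% had 14 or more. Tead3 had 5, Yap1 4 and Tead2 3, and Vgll2, Vgll3 and Wwtr1 had 1 each, where 73.2% of all genes had at least 1. The Vgll3 region lay in a coding exon, 362 bases from a transcript start outside the coding set. In Yap1, 1 region lay 192 bases from such a start. With the starts of all GENCODE transcripts, Vgll3 had 0 distal regions and Yap1 3. Several starts spread over a gene widen the window: per 100 kb searched, Tead4 had 9.58 regions, Tead1 7.77 and Vgll4 6.75, beside a median of 2.00 for all genes. Many of the Tead1 and Tead4 regions were weak. With peaks weaker than the median of their library left out, Tead1 and Tead4 had 4 each, and Vgll4 had 9. The order also depended on the window. Within 20 kb of a start Tead1 had 11 and Tead4 6, but Vgll4 had 2, as did Tead3 and Yap1. Within 100 kb Tead1 had 21, Tead3 and Tead4 14 each, Vgll4 13, and Tead2 and Vgll2 8 each. Small counts moved when 1 library was left out: in replicate 2 alone Wwtr1 had 5 and Vgll3 3, and in replicate 1 alone Tead2 had 5, and Vgll2 and Wwtr1 2 each.

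**Figure D2:**
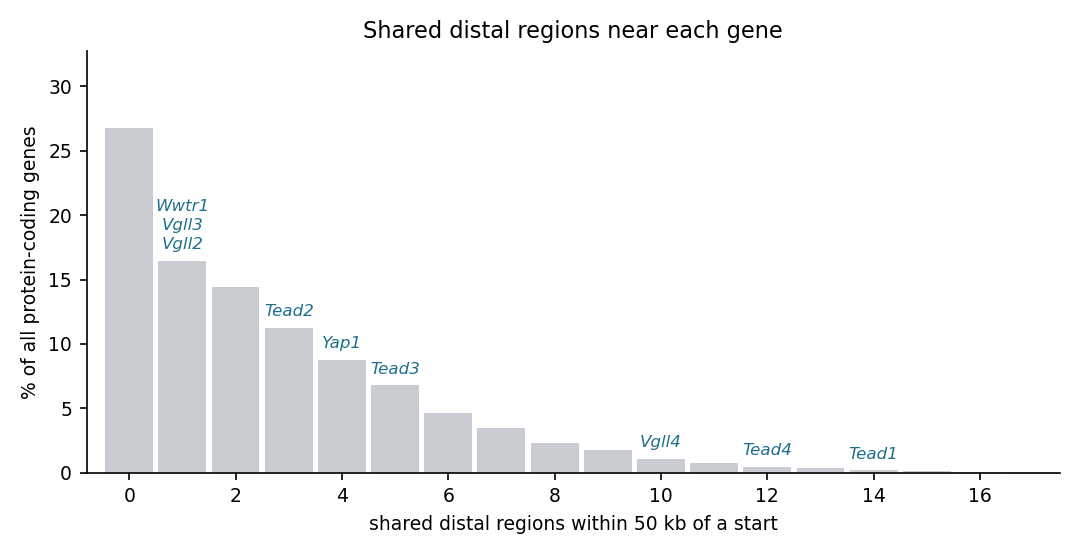
Share of all 21911 protein-coding genes (y axis, %) with each number of shared distal regions within 50 kb of a start (x axis), with the 9 genes written above the bar of their own count. Tead1 (14), Tead4 (12) and Vgll4 (10) stand in the sparse right tail, and Vgll2, Vgll3 and Wwtr1 (1 each) at the left.

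Most of the 51 regions lay in introns (33), fewer in intergenic DNA (13) and in exons (5). These counts include introns of the neighbouring genes Ccdc155, Tulp3, Ros1 and Tamm41 and an exon of Tulp3. Inside the body of the gene itself lay 31. For 39 of the 51 regions the gene itself had the nearest start. All 14 of Tead1 and all 4 of Yap1 were nearest to their gene, but none of the 3 of Tead2 and 1 of the 5 of Tead3, where Pth2, Ccdc155, Fance and Tulp1 were nearer. The neighbourhoods of Tead2 and Tead3 thus give little that can be assigned to them by distance. Long genes also held open sites beyond 50 kb from a start: Tead1 had 7 more in its introns, Wwtr1 6, and Vgll4 1 in an exon. The Wwtr1 sites lay 63.4 to 105.4 kb inside the gene, and the one with the highest mean percentile, at chr3:57506061-57506280, had signals of 2.63 and 1.57. The only region of Wwtr1 within the window lay at its edge, 49951 bases upstream, and nearer to Commd2.

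**Figure D3:**
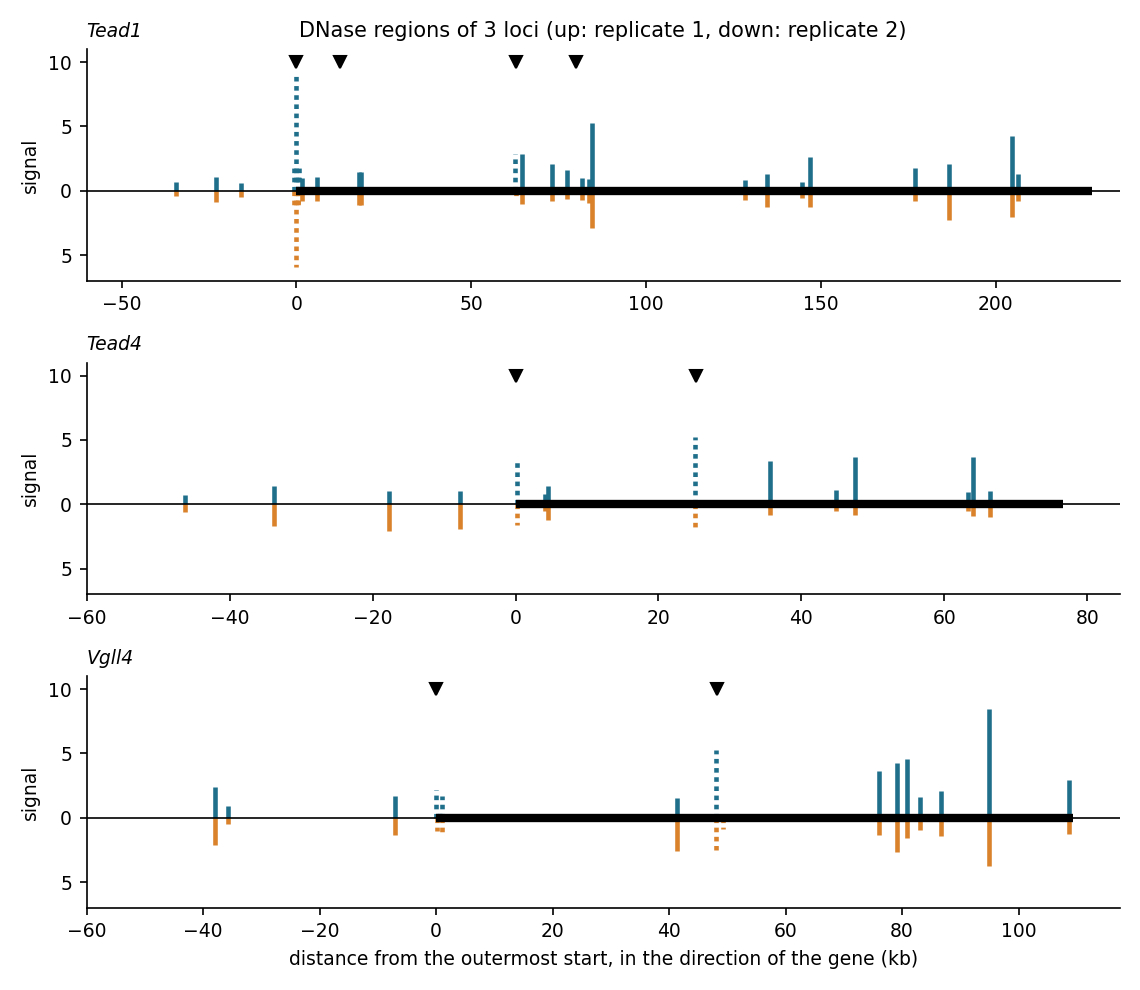
Distal regions open in both libraries, and promoter peaks of each library, along Tead1, Tead4 and Vgll4, by distance from the outermost start (x axis, kb, gene running to the right as a black bar). Line height is the deposited signal, upward for replicate 1 and downward for replicate 2, dashed for peaks within 1 kb of a coding start, and triangles mark start positions. The peak at the inner start exceeds that at the outer start in Tead4 and Vgll4, and the reverse holds in Tead1.

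The balance of the libraries differed along the loci. The ratio of replicate 1 to replicate 2 had a median of 1.42 over all 43847 shared distal regions, and 1.32 over those of the 9 genes. At 3 intronic regions of Tead4 the difference was far larger. Signals were 3.66 and 0.904 at chr6:128236641-128237000, 3.66 and 0.798 at chr6:128253168-128253439, and 3.37 and 0.872 at chr6:128264941-128265600. These are ratios of 4.05, 4.58 and 3.87, and 0.246%, 0.0730% and 0.381% of all shared distal regions had as high a ratio. All 3 held the E-box CAGCTG, the letters preferred by MyoD family factors, which 29.6% of all shared distal regions hold. The 3 regions are 360, 272 and 660 bases wide, beside a median of 200 over all, so these shares are not like for like. Over the 51 regions of the 9 genes, 11 held the E-box (21.6%). Among all regions with a ratio of 3 or more, 48.4% held it, with no allowance for width. The region with the highest ratio is shown (minus strand) with CAGCTG in capitals.
Tead4 intron, E-box: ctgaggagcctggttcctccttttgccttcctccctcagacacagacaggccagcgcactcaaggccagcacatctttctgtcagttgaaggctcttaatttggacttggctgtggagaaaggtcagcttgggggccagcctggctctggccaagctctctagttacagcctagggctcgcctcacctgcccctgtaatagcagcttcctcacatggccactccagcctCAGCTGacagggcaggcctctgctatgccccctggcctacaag
Promoters of the 10 fibre markers also had higher signal in replicate 1, with signals summing to 65.3 and 20.4 and a median ratio of 3.60 over the 9 open in both. The 3 mural markers summed to 6.04 and 2.28, the 3 Schwann markers to 10.04 and 6.21, and the 3 fibroblast markers to 12.4 and 8.21. The ratios of these sums were 3.20 for fibre, 2.65 for mural, 1.62 for Schwann and 1.52 for fibroblast markers. Replicate 1 was higher at most promoters, with a median ratio of 1.83 over all open in both libraries. Beside that, the median ratio was 1.88 for the mural, 2.06 for the Schwann (2 open in both) and 1.60 for the fibroblast markers. The 4 satellite cell markers summed to 7.95 and 1.69, and to 8.41 and 3.00 with the permissive list, where Pax7 and Myf5 also had a peak in replicate 2. The 3 endothelial markers summed to 2.74 and 3.08, and to 3.22 and 3.08 with the permissive list, which turns the direction. The 3 leukocyte markers summed to 0.764 and 0.762. Over the 9 genes the promoter ratio had a median of 2.22, from 1.20 in Tead2 to 2.94 in Wwtr1, beside 1.83 over all promoters open in both libraries. Whether the makeup of the tissue samples has a part in these ratios was not tested.

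At the other end, 11 of the 51 regions were higher in replicate 2, a share of 21.6% beside 27.3% of all shared distal regions. Of these, 4 lay near Tead3 and 3 near Tead4. The lowest ratio, 0.473, was at chr17:28308921-28309100 near Tead3, with signals of 2.71 and 5.74. Letters like the core motif of the insulator protein CTCF (CC, any 3 bases, AG, any 2 bases, GGC, on either strand) were in 6 of the 11 and in 5 of the other 40. Over all shared distal regions they were in 47.3% of those below 1 and in 11.3% of the rest, beside 54.5% and 12.5% at these genes. The motifs for E-box and CTCF were added after the ratios had been seen.

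**Figure D4:**
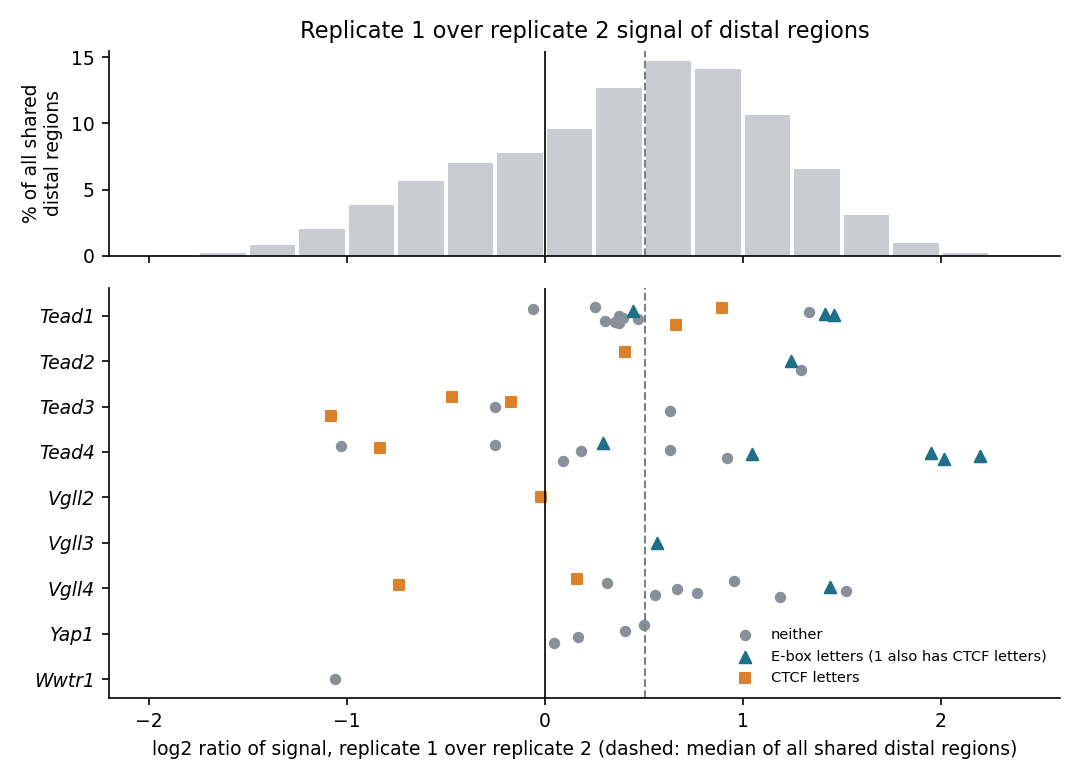
Log2 ratio of signal, replicate 1 over replicate 2 (x axis): above, the share of all 43847 shared distal regions per bin (y axis, %), and below, the 51 distal regions by gene, with triangles for E-box letters, squares for CTCF letters and circles for neither. The dashed line is the median of all regions. The 3 rightmost points are intronic Tead4 regions with E-box letters, and 6 of the 11 points left of 0 hold CTCF letters.

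TEAD core letters inside a footprint of both libraries were rare. Of the 51 distal regions, 10 held GGAATG, beside 14.3% of all shared distal regions, and 5 of those 10 were near Tead1. In 1 region the core lay wholly within footprints of both libraries, where 0.762% of all shared distal and 0.65% of all shared promoter regions met this rule. That region is in an intron of Tead4, 4.41 kb downstream of the outermost starts, at chr6:128296221-128296440, with signals of 1.39 and 1.22. It is shown (minus strand) with capitals for the bases inside footprints of both libraries, of which CATTCC is the core.
Tead4 intron, TEAD core: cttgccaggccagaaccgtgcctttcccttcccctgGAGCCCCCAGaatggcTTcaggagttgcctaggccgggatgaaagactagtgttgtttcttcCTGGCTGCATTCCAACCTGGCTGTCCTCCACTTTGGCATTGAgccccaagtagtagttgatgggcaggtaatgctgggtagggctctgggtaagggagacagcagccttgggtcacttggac
No promoter region of the 9 genes had the core so placed. With footprints of 1 library only, 2 of the shared regions met the rule in each library. With peaks as well taken from 1 library, these were 2 regions in replicate 1 and 1 in replicate 2. Footprints per kb of peak were 13.2 and 14.0 over the peaks of the 9 genes (mean 13.6 ± 0.602), beside 14.3 and 15.4 over all peaks. Their promoter peaks had 9.33 and 13.4 per kb, beside 14.1 and 15.2 for all promoter peaks, and their distal peaks 15.5 and 14.4, beside 14.3 and 15.5.

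The rest of the Hippo pathway was covered by 2 gene lists. All 25 kinases and adaptors and all 20 genes known as YAP/TAZ-TEAD targets had a promoter peak in both libraries, where 62.1% of all genes did. The kinases and adaptors had a median percentile of 77.1 and the targets 57.7, ranks that genes without a peak again raise. CpG ratios had medians of 0.705 and 0.639 in these lists, both above the 0.496 of all genes. Highest among the first were Taok3 (97.1 ± 0.470), a kinase that acts on the Hippo kinases, Mob1b (96.8 ± 3.62), the LATS coactivator, and Taok2 (93.1 ± 0.623). Highest among the targets were Birc5 (88.8 ± 4.50), the gene for survivin, Gadd45a (80.9 ± 5.85), a stress response gene, and Amotl2 (78.0 ± 8.94), whose product binds YAP. Well known targets are added here, named after their values were seen. Ccn1 and Ccn2, which encode matricellular proteins, had signals of 4.75 and 3.07, and of 5.13 and 2.94, at percentiles of 63.8 ± 1.88 and 64.1 ± 0.190, above the median of the list. Ankrd1, a titin-binding gene of stretched muscle, had 1.43 and 0.450, at a percentile of 41.5 ± 4.33.

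**Figure D5:**
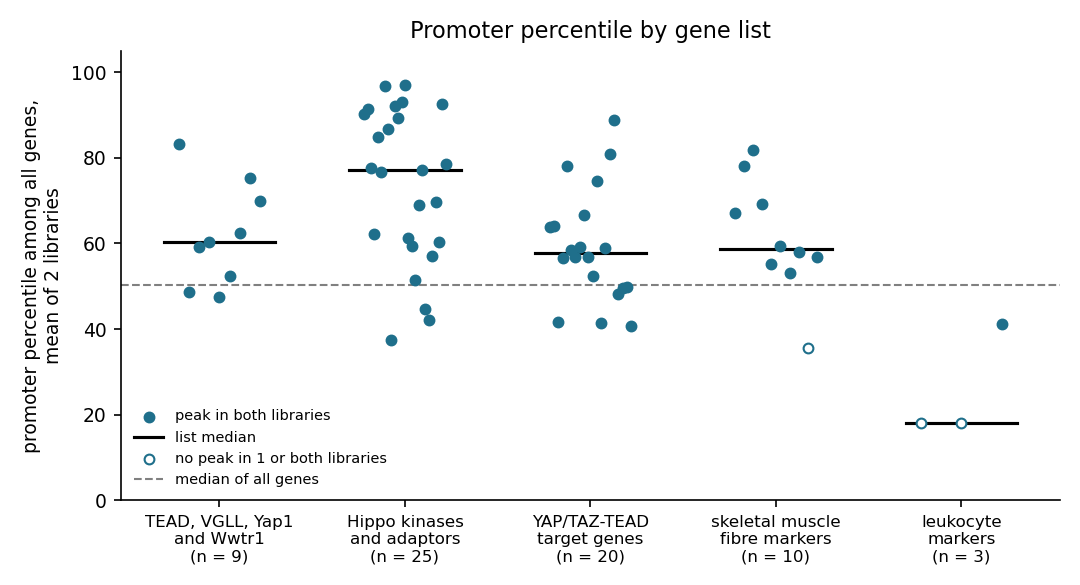
Promoter percentile among all genes (y axis, mean of the 2 libraries), 1 point per gene, for the 9 genes, both Hippo lists, fibre markers and leukocyte markers, with the median of each list as a bar. Filled points had a peak in both libraries. All 9 genes, all 25 kinases and adaptors and all 20 targets are filled, and the median of all genes is at 50.2 (dashed).

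By promoter percentile over both libraries, the gene of these lists closest to Tead1 was Lats2, the kinase that phosphorylates YAP and TAZ, at a summed difference of 3.61 percentile points. Amot, which holds YAP outside the nucleus, was closest to Tead3 (0.50) and Tead4 (2.90), and Map4k4 to Vgll4 (2.19). Yap1 was closest to Asap1 (2.08) and Wwtr1 to Ptpn14 (5.48). Tead2 was closest to Ccnd1 (4.15), Vgll2 to Rbms3 (4.32) and Vgll3 to Myof (5.33). Likeness over 2 libraries is a description of rank only.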

How the data were processed

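DNase-seq of 2 libraries of 1 group was analysed from the deposited files. Per the deposited descriptions, peaks, footprints and FDR tracks are on build mm10 and derive from the alignment of that library, not from pooled reads. The peak signal is the authors' own value, and how they scaled it is not stated. The footprint threshold (FDR 0.01) and the FDR p-value per base (listed below 0.05) are as deposited. No aligner or caller was given in the sources used here. The list with fewer peaks was used throughout, and the permissive list as an alternative.

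The 9 genes, the gene lists and the windows were chosen with earlier results of these data known. Starts came from GENCODE M21, as protein-coding transcripts with a complete 5′ end. That set was preferred after the files were seen, because the basic set lacks the outer Vgll4 starts. Shared regions were merged overlapping peaks of both libraries, by at least 1 base. Named genes of the Hippo lists were the 3 with the highest mean percentile and any without a peak. Motifs other than the TEAD core, the 250-base upstream window, the fixed-width windows and the ratio classes were added after the data were seen. No test was run, since there is 1 group. The calculations were tested on simulated data and used Python 3.11.15, numpy 2.4.6, pandas 2.3.3 and pysam 0.24.0. Sequences are from the RefSeq copy of GRCm38 (mm10). Protein sequences were not used here. 1 further sequence is not reported here.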

Additional observations from a re-analysis of the deposited data

How the results depend on the processing

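All 9 genes had a promoter peak in both libraries under each alternative for promoters (windows of 250 and 2500 bases, the permissive list with 66.2% of all genes open, peaks at or above the median signal, each library alone, and 2 other start sets). Their median percentile was 56.5 without replicate 1 and 64.7 without replicate 2, against 60.4. The spread comes from these same 2 libraries, so it cannot show whether a single library departs from the result. Under the other alternatives the median was 59.1 to 62.3, within that spread. The Hippo lists kept 40 of 45 genes open with the cut at the median signal and 43 with the window of 250 bases. Of all genes, 54.7% and 59.1% were open under these 2 alternatives. Under the other alternatives all 45 were open, beside 61.7% to 66.2% of all genes. The same shares of all genes stand beside the 9 open genes above. The count of distal regions was 25 within 20 kb, 90 within 100 kb, 77 over the gene body and 50 kb on either side, 83 with the permissive list and 27 with peaks at or above the median signal, against 51. It was 65 to 68 in single libraries, and 50 and 58 with the basic and full start sets, an alternative added after the data were seen. Regions with a TEAD core in a footprint numbered 2 with the central bases alone, 0 with the longer core ACATTCC, and 1 to 2 with peaks and footprints of single libraries, against 1. Footprints per kb were 11.9 with the permissive list, 12.8 counting only footprints wholly inside a peak, and 13.2 to 14.0 in single libraries. The causes of these shifts were not tested beyond the construction of each alternative. For single genes, 69 of 72 promoter percentiles and 71 of 99 distal counts stayed within the spread or within 1.5 times the value given. With each library left out, all 9 percentiles had to stay within the spread, because it is taken from the same 2 libraries. The permissive list and the cut at the median signal left the strongest promoter peak of each gene as it was. The count for percentiles thus says little about stability. No paired analysis was possible because there is 1 group and nothing to pair.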
